A study of Danio rerio with 8 samples.

Results

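Collagens, laminins, fibronectins and tenascins are the structural proteins of the extracellular matrix, and integrins are the receptors through which cells hold on to them. Fibrillar collagens form cable-like fibrils that in the brain lie mainly in the meninges and around larger vessels, whereas network collagens and laminins build the basement membranes that surround vessels and cover the brain surface. Tenascins, together with lecticans, form the softer matrix between neurons and glia. Every integrin is a pair of an alpha and a beta subunit, and the pair decides what is bound: some pairs bind collagen or laminin, others bind the RGD motif of fibronectin and vitronectin, and those with the beta subunit encoded by *itgb2* serve adhesion of leukocytes.

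These genes were examined in brains of *psap* KO zebrafish and of WT siblings by RNA sequencing. Members were chosen by gene name, with earlier results of these data known. Taken were names that begin with a collagen chain, a laminin chain, *fn1a* or *fn1b*, or an integrin alpha or beta subunit, together with *tnc* and *tnr*. The names matched 101 of 22871 genes, and the 100 described here hold 67 genes of matrix proteins and 30 of integrin subunits. The other 3 (*col4a3bpa*, *col4a3bpb* and *itgb1bp1*) carry the name of a collagen or an integrin that their product binds, and are described apart.

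All fish were of the TuAB strain, untreated and 4 mpf old. The paper states that males and females were used, but the sex of the fish in each pool is not given. The *psap* KO fish were homozygous for a net insertion in the gene of the saposin precursor that brings in a premature stop codon, and the line goes back to 1 F1 fish. The WT fish carried no mutant allele and came from the same families. After genotyping by fin clip, the genotypes were kept in separate tanks. The paper describes *psap* KO fish of this age as smaller than WT siblings and at the end stage of disease, with impaired swimming or wasting. Genotype thus goes together with tank and with the state of the fish, and their parts in the values were not tested. Each genotype had 4 libraries, and each library was made from the pooled whole brains of 3 fish. The labels number the pools of a genotype from 1 to 4, and values listed for the libraries follow that order. They name no separate clutch for a pool, so p-values measure the spread between these pools.

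Libraries held 15332163 to 23480758 counts in WT and 17562422 to 25127578 counts in *psap* KO brains. The first principal component separated the genotypes and took 64.8% of the variance. *psap* itself does not check the labels, because its mutant transcript was still present, at 342 to 416 CPM in the WT pools and 381 to 450.4 CPM in the KO pools. Levels are given as CPM, library-scaled counts (TMM method) expressed per 1e+06 counts. They hold no gene length, so levels were compared between libraries and not between genes. Neuron markers checked the tissue, since 24 of the 25 listed were found in the table and all of these were tested, and they summed to 9321 to 9849.8 CPM in the WT pools and 6311 to 6739 CPM in the KO pools. One pool stood apart in skeletal muscle genes, which summed to 830.4 CPM in WT replicate 1, 82.8 to 105 CPM in WT replicates 2 to 4 and 37.1 to 65.8 CPM in *psap* KO libraries. Every WT sum was thus above every *psap* KO sum. The median log2 fold change (*psap* KO over WT) of the 17 tested muscle genes was -2.11, and 1 of them was called lower in the test described below. The part of muscle in the collagen values was not tested.

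Matrix genes were lower more often than higher in *psap* KO brains, and integrin genes were higher more often than lower. At an adjusted p of 0.05 in the quasi-likelihood test of edgeR, run over all genes, 64 matrix genes had counts enough to be tested, and 11 of them were higher, 19 lower and 34 not called. Of 28 integrin subunit genes tested, 13 were called higher, 2 lower and 13 not called. The same test called 22.3% of all 21140 genes higher and 18.5% lower, against 17.2% and 29.7% of the matrix genes and 46.4% and 7.14% of the integrin genes. The median log2 fold change, given throughout for *psap* KO over WT, was -0.18 for matrix genes, 0.37 for integrin genes and 0.02 for all genes. With any 1 library left out, 9 to 12 matrix genes were higher and 15 to 18 lower, and 11 to 14 integrin genes were higher and 1 to 2 lower.

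By role, a grouping also made with earlier results known, the calls went in different directions. Over all tested genes, 22.3% were called higher and 18.5% lower. Fibrillar collagens held 8 lower genes (53.3%) and 0 higher ones among 15 tested, whereas laminins held 7 higher genes (58.3%) and 0 lower ones among 12 tested. At an unadjusted p under 0.05, edgeR gave 0 higher fibrillar collagens and 1 lower laminin (*lama3*), and DESeq2 and limma-voom gave 0 and 1 after adjustment. Basement membrane and network collagens had 2 higher (14.3%) and 3 lower (21.4%) among 14, not far from the shares of all genes. Among integrins, the RGD- and alpha4-family alpha subunits had 4 higher genes (66.7%) and 1 lower (16.7%) among 6. Beta subunits had 5 higher (45.5%) and 1 lower (9.09%) among 11. In whole-brain RNA, fewer cells of a type and less RNA per cell cannot be told apart, so these counts describe the tissue and not single cells.

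**Figure D1:**
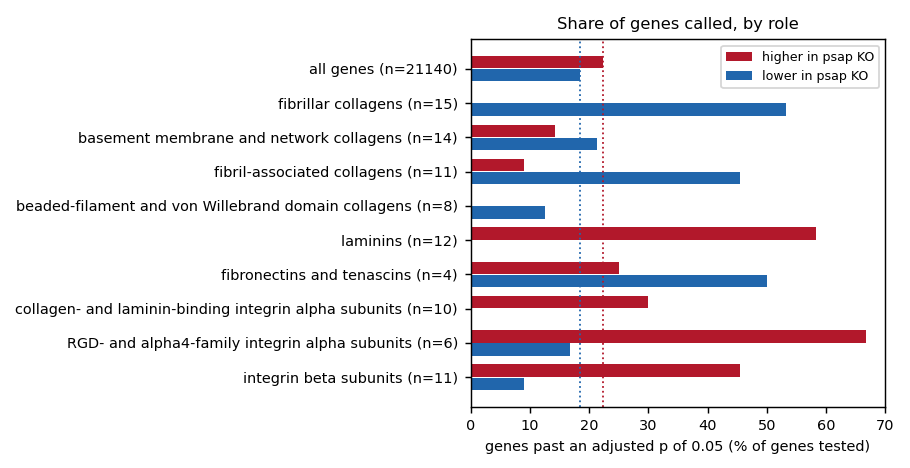
The percentage of tested genes called higher (red) or lower (blue) in *psap* KO at an adjusted p of 0.05 is plotted on the x axis for all genes and for each role with at least 4 tested genes (n, genes tested), and dotted lines mark the shares of all genes, 22.3% and 18.5%. Fibrillar collagens have a lower share of 53.3% and no higher gene, and laminins have a higher share of 58.3% and no lower gene.

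The chains of type I collagen, the main fibril of connective tissue, were the fibrillar collagens with the deepest fall among those with substantial counts. *col1a2* (on chromosome 19 from 40983221 to 41002980 of the deposited annotation, where no genome build is given) was at 36.4, 31.8, 43.3 and 28.3 CPM in WT and 12.1, 15.05, 15.7 and 18.2 CPM in *psap* KO libraries. Every *psap* KO library was below every WT library, with 34.9 ± 6.49 CPM in WT and 15.2 ± 2.51 CPM in *psap* KO brains (mean ± SD, n=4 each). The log2 fold change was -1.19 (SE 0.147, edgeR adjusted p = 6.39e-05). *col1a1a*, one of the paralogs for the other chain, was at 30.6, 18.2, 37.9 and 17.8 CPM in WT and 7.96, 13.3, 15.1 and 10.9 CPM in *psap* KO libraries. Its log2 fold change was -1.15 (SE 0.295, edgeR adjusted p = 0.0141), again without overlap. *col1a1b* was at 19.1, 20.99, 35.4 and 15.4 CPM in WT and 10.8, 11.97, 11.2 and 13.02 CPM in *psap* KO libraries and had a log2 fold change of -0.95 (SE 0.2303, edgeR adjusted p = 0.00842). WT replicate 3 held the highest value of all 8 libraries for each of these genes. Without it, the log2 fold change was -1.07 (adjusted p = 1.63e-04) for *col1a2*, -0.91 (adjusted p = 0.0199) for *col1a1a* and -0.65 (adjusted p = 0.00242) for *col1a1b*. The call for *col1a1a* was lost without *psap* KO replicate 4, at -1.11 (adjusted p = 0.0661).

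Type V collagen, which is built into type I fibrils and starts their assembly, was called lower at all its tested genes but *col5a3a*. *col5a1* was at 29.2, 27, 25.4 and 24.7 CPM in WT and 18.4, 20.2, 21.3 and 15.3 CPM in *psap* KO libraries, a log2 fold change of -0.497 (SE 0.107, edgeR adjusted p = 0.00275). *col5a2a* was at 24.4, 23.6, 25.1 and 23.4 CPM in WT and 15.8, 17.7, 19.4 and 18.2 CPM in *psap* KO libraries, a change of -0.44 (SE 0.08404, edgeR adjusted p = 0.00122). The libraries of the genotypes did not overlap for either gene, and the calls held without any 1 library. *col5a2b* and *col5a3b*, which had fewer counts, had log2 fold changes of -0.99 (SE 0.28, edgeR adjusted p = 0.0135) and -1.095 (SE 0.295, edgeR adjusted p = 0.0101), on 143 and 63 counts summed over the *psap* KO libraries. The call for *col5a2b* was lost without WT replicate 3, at -0.77 (adjusted p = 0.0565). *col27a1b*, a fibrillar collagen known from cartilage, had a change of -0.46 (SE 0.139, edgeR adjusted p = 0.0179) with overlapping libraries, and its call was lost without WT replicate 1, at -0.37 (adjusted p = 0.0618).

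The other 7 fibrillar collagens did not pass the test. These include the type II genes *col2a1a* and *col2a1b* and the type XI genes *col11a1a*, *col11a1b* and *col11a2*, the fibril formers of cartilage. *col5a3a* had a log2 fold change of 0.26 (95% interval -0.02 to 0.53, edgeR adjusted p = 0.123). *col11a1a* had a log2 fold change of -0.12 (95% interval -0.401 to 0.16, edgeR adjusted p = 0.477), and *col2a1b*, which ranged from 15.3 to 28.5 CPM in WT libraries and from 14.1 to 19.8 CPM in *psap* KO libraries, had one of -0.37 (95% interval -0.77 to 0.02, edgeR adjusted p = 0.122). The intervals of *col2a1a* and *col11a2* were wide, on 234 and 85 WT counts. The value for *col11a2* depended on WT replicate 3, without which the log2 fold change went from -0.96 to 0.16 (adjusted p = 0.839).

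Markers of fibroblasts, meninges, cartilage and bone were examined in the same libraries. Of 23 tested genes on a list of fibroblast and meninges markers, 9 were higher and 0 lower in edgeR's test, and their summed level lay between 186 and 216 CPM for WT, against 257 to 351 CPM for *psap* KO libraries. The number lower was also 0 at an unadjusted p under 0.05, with DESeq2 and with limma-voom. The other 14 markers were not called, and the log2 fold changes ran from -1.07 to 4.63 with a median of 0.30. Among the higher markers, *dcn*, which encodes the collagen-binding proteoglycan decorin, had a log2 fold change of 0.5 (SE 0.0797, edgeR adjusted p = 3.28e-04), and *pdgfra* one of 0.42 (SE 0.107, edgeR adjusted p = 0.00702). The naming rules given below do not cover these markers. *pdgfra* is also on the list for oligodendrocyte precursors, and the paper's PCR measurements found it unchanged in *psap* KO brains over the course of the disease. Of 11 tested cartilage and bone markers, 2 were higher and 0 lower by edgeR, DESeq2 and limma-voom (1 lower at an unadjusted p under 0.05), with sums between 77.1 and 86.3 CPM for WT and 87.7 and 93.6 CPM for *psap* KO libraries. The median log2 fold change of these 11 markers was -0.27, so most of them did not share the rise of the sum. None of the listed genes found in the table was at 0 in every library. Of the fibroblast and meninges markers 39.1% were higher and 0% lower, against 22.3% and 18.5% of all genes. For cartilage and bone markers the shares were 18.2% and 0%. The part of these cells in the collagen values was not tested.

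Among collagens of basement membranes and other networks, the genes for the chains common to all vessel basement membranes did not pass the test. *col4a1* was at 51.2, 48.1, 46.4 and 50.4 CPM in WT and 49.1, 44.9, 56.5 and 57.8 CPM in *psap* KO libraries, and its log2 fold change was 0.09 (95% interval -0.102 to 0.28, edgeR adjusted p = 0.454). *col4a2*, its head-to-head neighbour on chromosome 9, had a change of 0.13 (95% interval -0.07 to 0.32, edgeR adjusted p = 0.3). The genotypes overlapped for both genes. *col18a1a*, which encodes a heparan sulfate-bearing collagen of basement membranes, had a change of -0.08 (95% interval -0.26 to 0.11, edgeR adjusted p = 0.51). For these genes the intervals leave out a fall or a rise of the size seen for *col1a2*.

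The type VIII collagens, short-chain collagens that form hexagonal networks in vessel walls and in the eye, were higher. *col8a2* was at 5.62, 7.15, 5.498 and 6.56 CPM in WT and 7.85, 10.1, 9.04 and 9.23 CPM in *psap* KO libraries, a log2 fold change of 0.55 (SE 0.132, edgeR adjusted p = 0.00528). *col8a1b* ranged from 3.78 to 4.09 CPM in WT libraries and from 4.84 to 7.05 CPM in *psap* KO libraries, a change of 0.57 (SE 0.159, edgeR adjusted p = 0.012). Every *psap* KO library was above every WT library for both. Lower were *col7a1*, the collagen of anchoring fibrils under epithelia, *col10a1a*, a collagen of mineralizing cartilage, and *col4a3*. *col7a1* had a log2 fold change of -0.801 (SE 0.208, edgeR adjusted p = 0.00816), and its lowest WT value met the highest *psap* KO value. *col10a1a* was low throughout, from 0.8099 to 2.86 CPM in WT libraries and from 0.535 to 0.616 CPM in *psap* KO libraries, with a change of -1.44 (SE 0.392, edgeR adjusted p = 0.0108), and without WT replicate 3 the change was -0.94 (adjusted p = 0.0473). *col4a3* rested on 57 and 32 counts per genotype, with a change of -0.98 (SE 0.331, edgeR adjusted p = 0.0315) that was called in only 2 of the 8 fits without 1 library (lost without WT replicates 1 and 3 and without each *psap* KO library), and was also lost with DESeq2, at -1.02 (adjusted p = 0.0788), and with the replicate number as a term, at -0.97 (adjusted p = 0.0694). It overlaps *col4a4* by 538 bases on the opposite strand.

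Collagens that sit on the surface of fibrils were lower in 5 cases (45.5%) and higher in 1 (9.09%) among 11 tested. The shares of all tested genes were 18.5% lower and 22.3% higher. Without 1 library the counts were 3 to 4 lower and 0 to 1 higher, with 3 lower without WT replicate 2, 3 or 4 or *psap* KO replicate 3. *col14a1a*, the one with the most counts, was at 104, 125, 107 and 98.1 CPM in WT and 74.8, 86.5, 84.3 and 74.3 CPM in *psap* KO libraries. Its genotypes did not overlap, and its log2 fold change was -0.44 (SE 0.0852, edgeR adjusted p = 0.0014). The paralog *col14a1b* had a change of -0.41 (95% interval -0.78 to -0.03, edgeR adjusted p = 0.0769). *col19a1*, known in the mouse from neurons that organize inhibitory synapses, is split over 2 identifiers 134.8 kb apart on chromosome 13. The one with more counts (ENSDARG00000076163) was at 19.4, 24.2, 21.7 and 23.7 CPM in WT and 15.03, 14.5, 17.5 and 13.6 CPM in *psap* KO libraries, a change of -0.55 (SE 0.104, edgeR adjusted p = 0.00108), and the other had a change of -0.56 (SE 0.182, edgeR adjusted p = 0.0282) that was called in 3 of 8 fits without 1 library. The lost calls were those without WT replicates 2, 3 and 4 and *psap* KO replicates 2 and 3.

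The type IX genes, which coat type II fibrils in cartilage, did not move together. *col9a3* was at 4.97, 4.93, 4.79 and 6.28 CPM in WT and 3.06, 4.05, 2.72 and 3.102 CPM in *psap* KO libraries, with a log2 fold change of -0.696 (SE 0.173, edgeR adjusted p = 0.00652). *col9a1a* had a change of -0.88 (SE 0.326, edgeR adjusted p = 0.0483) on 114 and 70 counts, called in 1 of 8 fits without 1 library, namely the one without *psap* KO replicate 2, and lost with upper-quartile scaling, with no filter on low counts and with the replicate number as a term. *col9a2* had 0.44 (95% interval -0.09 to 0.98, edgeR adjusted p = 0.176). *col12a1a*, a collagen of dense connective tissue, was the higher one, from 32.1 to 44.1 CPM in WT libraries and from 37.8 to 58.1 CPM in *psap* KO libraries, a log2 fold change of 0.38 and an edgeR adjusted p of 0.04996. This lies at the threshold, and the call was lost without WT replicate 1, 3 or 4, without *psap* KO replicate 1, 2 or 3, with RLE scaling, with no filter on low counts and with limma-voom. Its paralog *col12a1b* had the largest SE of the tested members, at 5.02, 13.8, 5.19 and 4.46 CPM in WT and 21.8, 4.62, 1.26 and 4.098 CPM in *psap* KO libraries, so that its interval ran from -1.95 to 2.26.

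Type VI collagen, which forms beaded filaments around cells, held 1 called gene. *col6a1* was at 33.7, 25.8, 23.9 and 28.9 CPM in WT and 12.3, 17.6, 16.2 and 17.5 CPM in *psap* KO libraries, with no overlap and 28.1 ± 4.26 CPM in WT and 15.9 ± 2.47 CPM in *psap* KO brains (mean ± SD, n=4 each). Its log2 fold change was -0.82 (SE 0.132, edgeR adjusted p = 3.75e-04). *col6a2*, whose product assembles with that of *col6a1* and whose gene lies 36.2 kb away on chromosome 11, had a change of -0.51 (95% interval -1.005 to -0.02, edgeR adjusted p = 0.0909). *col6a3*, the gene of the third chain, had a change of 0.31 (95% interval 0.06 to 0.57, edgeR adjusted p = 0.0507) at its main identifier, with the sign opposite to *col6a1*. A second identifier named *col6a3* overlaps it by 6551 bases on the same strand, so how their reads were divided is uncertain.

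**Figure D2:**
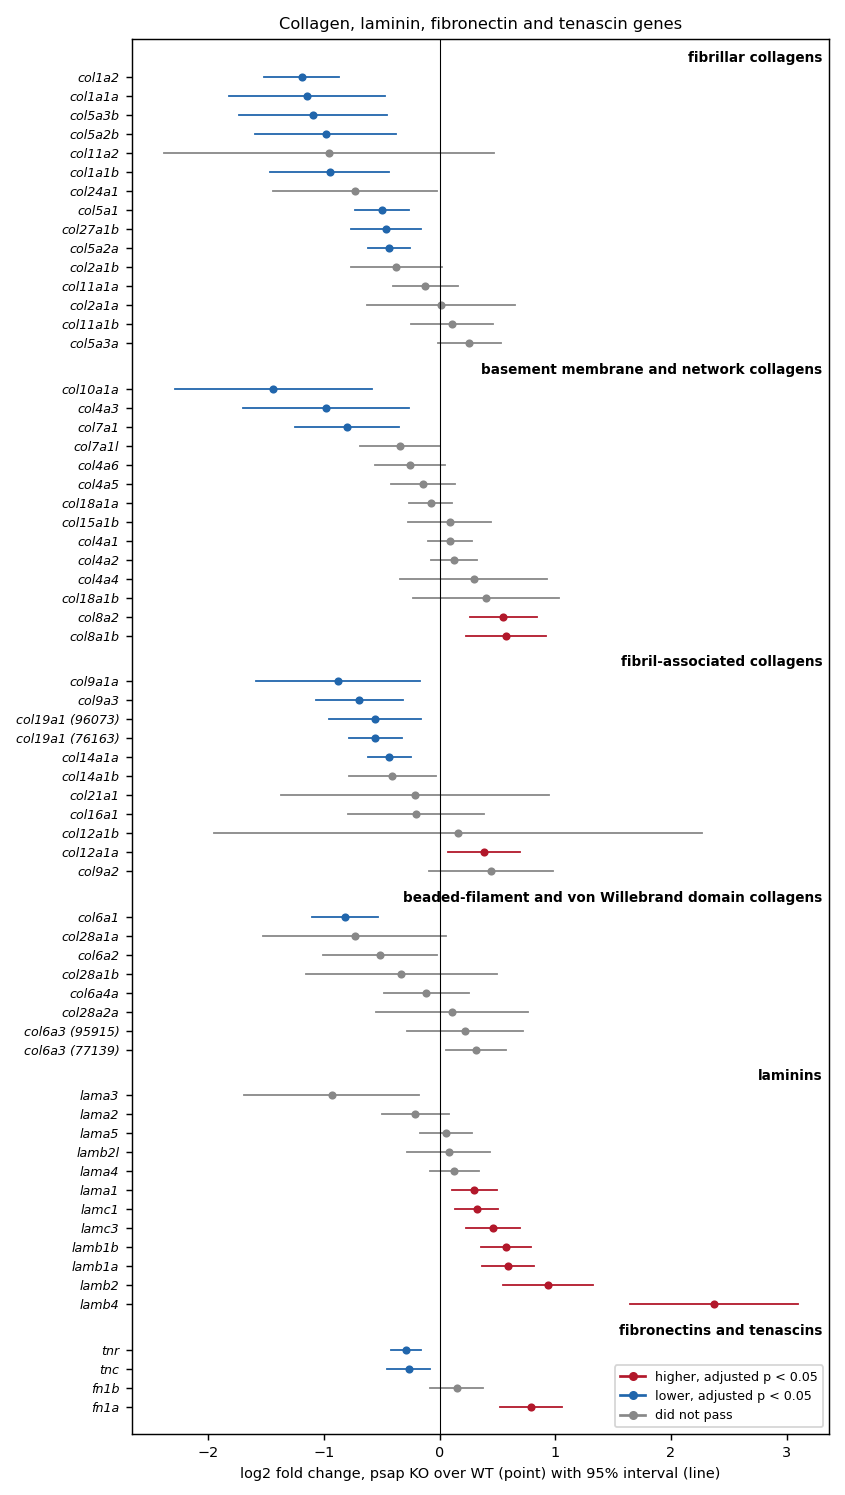
Points show log2 fold changes, *psap* KO over WT (x axis), for the 64 tested matrix genes by role, lines show the 95% interval, and colour shows the call at an adjusted p of 0.05, with the last 5 digits of the identifier where 2 genes share a name. All called fibrillar collagens lie left of 0, from -0.44 for *col5a2a* to -1.19 for *col1a2*, and all called laminins lie right of 0, from 0.30 for *lama1* to 2.37 for *lamb4*.

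Laminins are trimers of an alpha, a beta and a gamma chain. In *psap* KO brains 4 of 5 tested beta chain genes, 2 of the 2 gamma chain genes described and 1 of 5 alpha chain genes were higher. Over all tested genes 22.3% were called higher, and the alpha chain count was near this share. *lamb1a* was at 17.9, 20.3, 20.4 and 20.2 CPM in WT and 29.5, 25.9, 27.8 and 35.4 CPM in *psap* KO libraries, a log2 fold change of 0.59 (SE 0.102, edgeR adjusted p = 5.96e-04). *lamb1b* was at 32.9, 30.2, 33.3 and 38.6 CPM in WT and 45.1, 46.5, 58.3 and 51.01 CPM in *psap* KO libraries, a change of 0.57 (SE 0.09904, edgeR adjusted p = 6.05e-04). The paralogs of this beta chain, the common one of early and vascular basement membranes, thus rose by like amounts without overlap between genotypes. *lamb2*, the beta chain of mature vessel and synaptic basement membranes in mammals, ranged from 6.98 to 9.15 CPM in WT libraries and from 11.4 to 20.8 CPM in *psap* KO libraries, a change of 0.93 (SE 0.179, edgeR adjusted p = 0.00135). *lamb2l*, which lies 3.08 kb from *lamb2* on chromosome 23, had a change of 0.08 (95% interval -0.28 to 0.44, edgeR adjusted p = 0.732).

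*lamb4*, a further beta chain gene, had the largest change of any matrix gene tested. It was at 3.02, 2.43, 4.49 and 4.23 CPM in WT and 27.95, 18.4, 18.5 and 9.92 CPM in *psap* KO libraries. Every *psap* KO library was above every WT library, but the *psap* KO libraries differed among themselves, with the highest value in replicate 1 and the lowest in replicate 4. The log2 fold change was 2.37 (SE 0.321, edgeR adjusted p = 3.40e-04). *lamb4* (chromosome 25 from 31633322 to 31702970) lies 4.23 kb from *lamb1a* on the same strand of the deposited annotation.

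Both gamma chain genes described here were higher. *lamc3*, known from the mouse brain surface and retina, was at 46.4, 51.2, 50.5 and 57.8 CPM in WT and 55.3, 76.03, 76.7 and 75.5 CPM in *psap* KO libraries, a log2 fold change of 0.46 (SE 0.107, edgeR adjusted p = 0.00435), and *psap* KO replicate 1 lay within the WT range. *lamc1*, the gamma chain of most laminins, ranged from 30.3 to 34.9 CPM in WT libraries and from 35.8 to 44.4 CPM in *psap* KO libraries, a change of 0.32 (SE 0.0861, edgeR adjusted p = 0.01).

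Of the alpha chain genes, *lama1* alone was called. *lama1* ranged from 28.2 to 32.4 CPM in WT libraries and from 33.4 to 41.8 CPM in *psap* KO libraries, a log2 fold change of 0.301 (SE 0.0896, edgeR adjusted p = 0.0173), and its call was lost without *psap* KO replicate 2 or WT replicate 3 or 4. *lama4* and *lama5*, the alpha chains of vessel basement membranes, had changes of 0.13 (95% interval -0.09 to 0.34, edgeR adjusted p = 0.328) and 0.06 (95% interval -0.17 to 0.28, edgeR adjusted p = 0.694). *lama2*, the alpha chain of glial and muscle basement membranes, had -0.21 (95% interval -0.501 to 0.08, edgeR adjusted p = 0.235). *lama3*, the alpha chain of epithelial laminin in mammals, had a change of -0.93 (95% interval -1.69 to -0.18, edgeR adjusted p = 0.0501).

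Endothelial markers were higher in the same libraries. Of 26 tested, 13 were higher and 0 lower by edgeR's test, with summed levels between 499 and 553 CPM for WT and 663 and 774 CPM for *psap* KO libraries, and 0 were lower at an unadjusted p under 0.05, with DESeq2 and with limma-voom. Of 14 mural cell markers, 4 were higher and 1 was lower, with sums of 491 to 524 CPM and 518 to 553 CPM. Radial astroglia markers, which mark the cells that line the brain surface and the ventricles in fish, had 12 higher and 1 lower of 19, with sums of 4479 to 5235 CPM and 6095 to 7328 CPM. Of 11 skin epithelium markers, 3 were higher and 1 was lower, with sums of 23.5 to 33.0 CPM and 31.3 to 40.3 CPM. The shares higher were 50% for endothelial, 28.6% for mural, 63.2% for radial astroglia and 27.3% for skin markers, against 22.3% of all genes. The shares lower were 0%, 7.14%, 5.26% and 9.09% in the same order, against 18.5%. The shares higher of the mural and skin lists were the closest to that of all genes. What part these cells have in the laminin values was not tested.

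Of the fibronectin paralogs, *fn1a* passed the test and *fn1b* did not. *fn1a* was at 19.8, 17.7, 23.5 and 24.7 CPM in WT and 36.2, 32.2, 35.3 and 44.4 CPM in *psap* KO libraries, with no overlap and a log2 fold change of 0.79 (SE 0.123, edgeR adjusted p = 2.99e-04). *fn1b* was at 34.7, 40.6, 46.1 and 43.5 CPM in WT and 42.3, 41.6, 45.4 and 53.5 CPM in *psap* KO libraries, with overlapping genotypes and a change of 0.15 (95% interval -0.08 to 0.37, edgeR adjusted p = 0.285). The tenascins, large glycoproteins of the matrix between neural cells, had the most counts of the matrix genes and were slightly lower. *tnr*, which encodes the tenascin of perineuronal nets and oligodendrocytes, was at 153, 157, 172 and 162 CPM in WT and 133, 135, 128 and 131 CPM in *psap* KO libraries. The fall was small but without overlap, with a log2 fold change of -0.29 (SE 0.0599, edgeR adjusted p = 0.00194). *tnc*, the tenascin of glia and of sites of repair, was at 176, 162, 181 and 176 CPM in WT and 122, 151, 140.1 and 165 CPM in *psap* KO libraries, a change of -0.27 (SE 0.0869, edgeR adjusted p = 0.0261). The call for *tnc* was lost with upper-quartile scaling and without WT replicate 1, 3 or 4 or *psap* KO replicate 1 or 3.

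Neuron and oligodendrocyte markers moved in these libraries too. Of 24 neuron markers, 21 were lower and 1 was higher. Of 14 genes of oligodendrocytes and their precursors, 7 were higher and 2 were lower, and their sum lay between 7495 and 9346 CPM for WT and 2729 and 4891 CPM for *psap* KO libraries. The median log2 fold change of these 14 genes was 0.35, so the fall of the sum was not shared by most of them. A single gene averaged 6323 CPM in WT libraries and made up most of the WT sum. Of the neuron markers 4.17% were higher and 87.5% lower, against 22.3% and 18.5% of all genes. For oligodendrocytes and their precursors the shares were 50% and 14.3%. The part of these cells in the tenascin values was not tested.

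**Figure D3:**
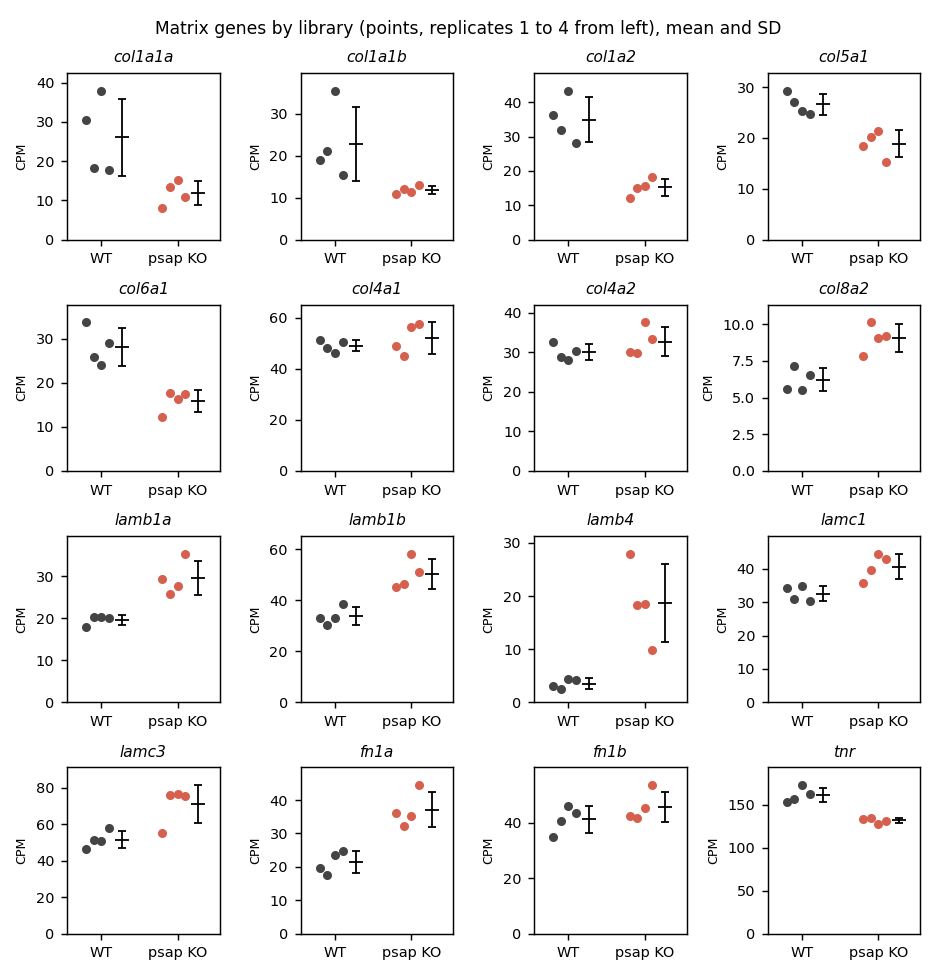
Each panel shows 1 matrix gene, with CPM on the y axis from 0, the 4 libraries of each genotype as points (replicates 1 to 4 from the left) and the mean with SD beside them. The type I collagen genes, *col5a1*, *col6a1* and *tnr* have all *psap* KO points below the WT points, *lamb1a*, *lamb1b*, *lamb4* and *fn1a* have all above, and *col4a1*, *col4a2* and *fn1b* overlap.

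The integrin genes *itgb2* and *itgb7*, known from leukocytes, had the largest rises among the tested integrin genes. *itgb2*, which encodes the beta subunit shared by the leukocyte integrins, was at 16.6, 14.3, 14.8 and 17.8 CPM in WT and 83.5, 82.3, 82.5 and 106 CPM in *psap* KO libraries. The genotypes were far apart, with 15.9 ± 1.61 CPM in WT and 88.6 ± 11.8 CPM in *psap* KO brains (mean ± SD, n=4 each). The log2 fold change was 2.48 (SE 0.107, edgeR adjusted p = 1.54e-08), the smallest p-value of all members. *itgb2* lies on chromosome 9 from 44961138 to 44983666. *itgb7*, the beta subunit that in mammals guides lymphocytes to the gut and is also found on other leukocytes, was at 3.73, 3.04, 2.02 and 2.93 CPM in WT and 11.1, 10.2, 18.3 and 17.9 CPM in *psap* KO libraries, a change of 2.31 (SE 0.244, edgeR adjusted p = 2.57e-05) without overlap. *itga4*, whose product pairs with the products of *itgb7* and *itgb1a* or *itgb1b* and binds the vascular adhesion molecule Vcam1, ranged from 5.602 to 9.21 CPM in WT libraries and from 9.77 to 12.4 CPM in *psap* KO libraries, a change of 0.65 (SE 0.163, edgeR adjusted p = 0.0069).

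*itgam*, which in mammals encodes the alpha partner of the *itgb2* product on myeloid cells and was the one leukocyte alpha subunit matched by name, was less uniform. It was at 2.7, 2.02, 3.69 and 3.91 CPM in WT and 2.78, 7.44, 11.3 and 18.3 CPM in *psap* KO libraries. *psap* KO replicate 1 lay within the WT range, while the other *psap* KO libraries lay above it. The log2 fold change was 1.69 (SE 0.5302, edgeR adjusted p = 0.036). The call was lost without any 1 of the WT libraries, without *psap* KO replicate 3 or 4, and with limma-voom, where it was 1.48 (adjusted p = 0.0622).

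The leukocyte markers of the same libraries moved as follows. Of 26 microglia and macrophage markers, 24 were higher and 0 lower in edgeR's test, as with DESeq2 and limma-voom and with 0 lower at an unadjusted p under 0.05, and their sum lay between 416 and 474 CPM for WT and 1287 and 1848 CPM for *psap* KO libraries. The highest sum was in *psap* KO replicate 4, which also had the highest *itgb2* and *itgam*, whereas *itgb7* was highest in *psap* KO replicate 3. The sums of neutrophil, endothelial and fibroblast and meninges markers were also highest in *psap* KO replicate 4, and that of lymphocyte markers was lowest there. Of 11 neutrophil markers, 8 were higher and 0 lower by all 3 tools (1 lower at an unadjusted p under 0.05), with sums of 44.3 to 53.9 CPM and 125 to 174 CPM. Of 12 lymphocyte markers, 9 were higher and 1 was lower, although the sums overlapped, at 197 to 228 CPM and 166 to 211 CPM, because *bcl11ba*, which neurons also express, made up most of them and was lower at -0.398. The shares higher were 92.3% for microglia and macrophage, 72.7% for neutrophil and 75% for lymphocyte markers, against 22.3% of all genes. The shares lower were 0%, 0% and 8.33% in the same order, against 18.5%. The part of each cell type in the integrin values was not tested.

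The alphaV integrins bind RGD-bearing proteins such as vitronectin, fibronectin and the latent form of TGF-beta. *itgav*, the only alpha subunit of this family, had the highest counts of all integrin genes. It was at 126, 124, 133 and 143 CPM in WT and 223, 245, 254 and 316 CPM in *psap* KO libraries, with 132 ± 8.48 CPM in WT and 259 ± 39.99 CPM in *psap* KO brains (mean ± SD, n=4 each). There was no overlap, and *psap* KO replicate 4 was the highest. The log2 fold change was 0.98 (SE 0.0991, edgeR adjusted p = 1.04e-05) (chromosome 9 from 11597500 to 11655031).

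The beta partners of alphaV went in different directions. *itgb6*, known in mammals from epithelia, was at 0.8099, 1.21, 1.01 and 0.605 CPM in WT and 2.62, 3.34, 3.94 and 3.22 CPM in *psap* KO libraries, a log2 fold change of 1.86 (SE 0.254, edgeR adjusted p = 1.03e-04) without overlap. *itgb5*, known from phagocytes and glia, was at 52.2, 56.02, 57.8 and 61.4 CPM in WT and 63.03, 66.4, 73.9 and 99.6 CPM in *psap* KO libraries, a change of 0.42 (SE 0.1299, edgeR adjusted p = 0.0247). This call was lost without WT replicate 1, 2 or 3, and without *psap* KO replicate 4 the change was 0.25 (adjusted p = 0.019). *itgb8*, which in the mouse brain is made by radial glia and is needed for vessels to form properly, was lower, at 43.1, 44.7, 41.4 and 40.2 CPM in WT and 33.1, 35.4, 36.2 and 36.2 CPM in *psap* KO libraries. Its libraries did not overlap, with a change of -0.27 (SE 0.0693, edgeR adjusted p = 0.00856). *itgb3b*, a partner of both alphaV and the platelet alpha subunit, had a change of -0.06 (95% interval -0.53 to 0.41, edgeR adjusted p = 0.848). The platelet subunit gene *itga2b* had -0.26 (95% interval -0.95 to 0.42, edgeR adjusted p = 0.539) on 90 and 84 counts. Of 7 tested thrombocyte markers, 1 was higher and 2 were lower, with sums between 15.6 and 19.6 CPM for WT and 20.4 and 26.7 CPM for *psap* KO libraries. Their log2 fold changes ran from -0.73 to 2.00 with a median of -0.40, so most of these markers did not share the rise of the sum. Of them 14.3% were higher and 28.6% lower, against 22.3% and 18.5% of all genes.

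The remaining alpha subunits of the RGD and alpha4 families pair with beta1. *itga5*, the main fibronectin receptor subunit, was at 16.9, 10.9, 14.6 and 12.3 CPM in WT and 25, 19.2, 27.5 and 19.6 CPM in *psap* KO libraries, a log2 fold change of 0.73 (SE 0.153, edgeR adjusted p = 0.0025) without overlap. *itga8*, a receptor subunit for nephronectin and fibronectin, was at 19.4, 18.2, 21.9 and 22.6 CPM in WT and 28.1, 25.03, 26.6 and 25.97 CPM in *psap* KO libraries, a change of 0.36 (SE 0.0881, edgeR adjusted p = 0.00598), also without overlap. *itga9*, a receptor subunit for tenascin-C and other ligands, was lower, from 4.79 to 9.23 CPM in WT libraries and from 3.61 to 4.62 CPM in *psap* KO libraries, with a change of -0.59 (SE 0.206, edgeR adjusted p = 0.0368). Without WT replicate 1, which held the highest value, it was -0.34 (adjusted p = 0.123), and the call was also lost without *psap* KO replicates 2, 3 or 4 and with limma-voom.

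The beta1 paralogs differed in their calls. *itgb1a* was at 37.5, 39.8, 38.4 and 37.1 CPM in WT and 34.02, 38.6, 40.8 and 42.8 CPM in *psap* KO libraries, and its log2 fold change was 0.03 (95% interval -0.14 to 0.21, edgeR adjusted p = 0.772). *itgb1b* was at 21.1, 18.4, 20.4 and 22.4 CPM in WT and 32.8, 28.4, 32.5 and 32.7 CPM in *psap* KO libraries, with no overlap between genotypes and a change of 0.62 (SE 0.0859, edgeR adjusted p = 1.18e-04). Copies named *itgb1b.1* and *itgb1b.2* lie 35.7 and 55.1 kb from *itgb1b* on chromosome 2, with at most 1.21 CPM in any library. Reads shared between such copies could have been divided between them or left out, so the values for *itgb1b* are uncertain to that extent.

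Alpha subunits that pair with beta1 to bind collagen or laminin were called in 3 of 10 cases, all higher. This share, 30%, was not far from the 22.3% of all genes. *itga1*, a receptor subunit for type IV collagen on vessel and mural cells, was at 44.3, 34.96, 42.4 and 41.9 CPM in WT and 57.02, 47.1, 53.2 and 55.3 CPM in *psap* KO libraries. It rose without overlap, at 0.38 (SE 0.08897, edgeR adjusted p = 0.00476) on the log2 scale. *itga2.2*, a copy of the alpha2 collagen receptor gene, had 1.52 (SE 0.378, edgeR adjusted p = 0.00641) on 30 and 96 counts summed over the libraries of each genotype, and the neighbouring copy *itga2.3*, 1.56 kb away, was too low to test. *itga6l* had 1.6 (SE 0.435, edgeR adjusted p = 0.0106) on 31 and 110 counts, and overlaps *chrnb3b* on the opposite strand by 1506 bases. The laminin receptor genes with more counts did not pass the test, with -0.07 (95% interval -0.302 to 0.16, edgeR adjusted p = 0.635) for *itga6a*, 0.28 (95% interval 0.04 to 0.51, edgeR adjusted p = 0.0561) for *itga6b* and -0.21 (95% interval -0.56 to 0.14, edgeR adjusted p = 0.318) for *itga3b*. *itga11a*, a collagen receptor subunit of fibroblasts, had -0.09 (95% interval -0.39 to 0.2, edgeR adjusted p = 0.614). *itgb4*, which joins alpha6 in the hemidesmosomes of epithelia and is also made by endothelium, had 0.11 (95% interval -0.11 to 0.32, edgeR adjusted p = 0.434).

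**Figure D4:**
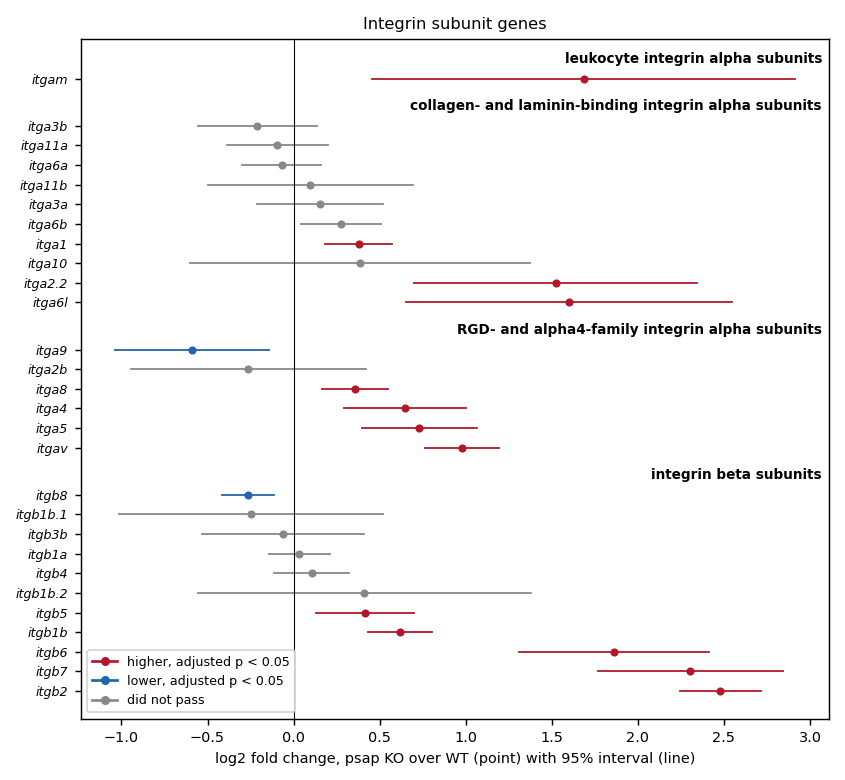
Points show log2 fold changes, *psap* KO over WT (x axis), for the 28 tested integrin subunit genes by role, lines show the 95% interval, and colour shows the call at an adjusted p of 0.05. Of the 15 called genes, *itga9* and *itgb8* lie left of 0 and the other 13 lie right of it, up to 2.48 for *itgb2*.

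**Figure D5:**
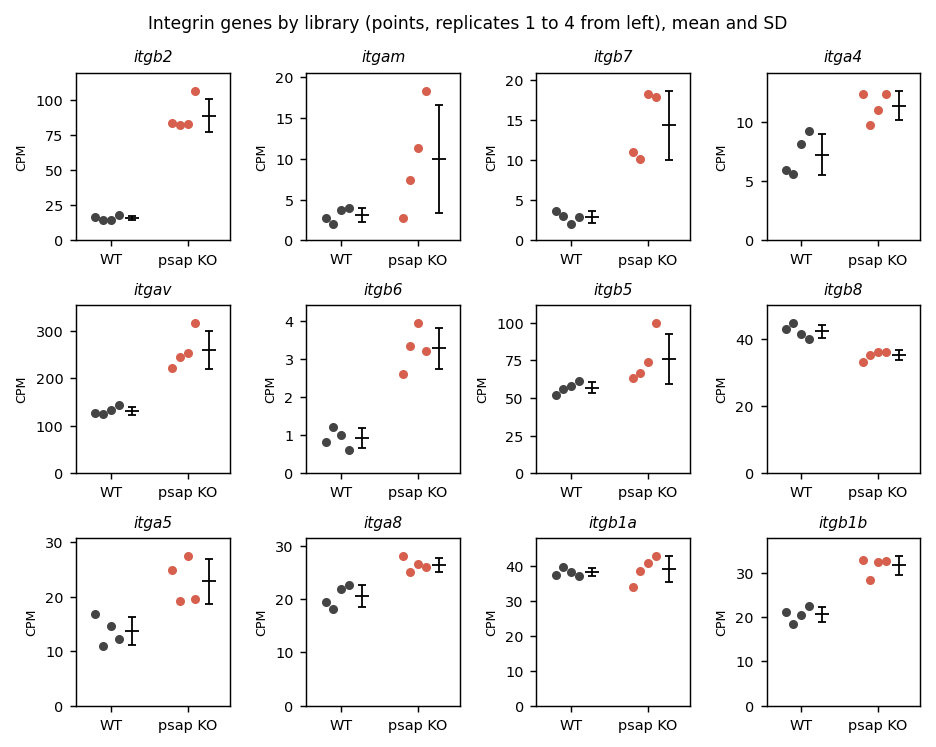
Each panel shows 1 integrin gene, with CPM on the y axis from 0, the 4 libraries of each genotype as points (replicates 1 to 4 from the left) and the mean with SD beside them. *itgb2*, *itgb7*, *itgav* and *itgb6* have wide gaps between the genotypes, *itgb8* lies lower in *psap* KO libraries, and *itgam* and *itgb1a* overlap.

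Counting calls, 25 of the 95 tested members were higher and 22 lower. These are 26.3% and 23.2%, not far from the 22.3% and 18.5% of all tested genes. By the libraries alone, 23 tested members had all *psap* KO libraries above all WT libraries and 19 had all below. Over all tested genes, the shares were 21.9% above and 18.3% below. The 5 members that did not have enough counts for a test were *col10a1b*, *col9a1b*, *col17a1b*, *itga2.3* and *itgb3a*, with at most 1.62 CPM in any library. *col17a1b* was the one member from the membrane-spanning collagens.

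The 3 genes that only carry the name of a collagen or an integrin behaved differently from each other. *col4a3bpa* and *col4a3bpb* encode the ceramide transfer protein, which carries ceramide from the endoplasmic reticulum to the Golgi for the synthesis of sphingomyelin, and are no collagen genes. *col4a3bpa* was at 19.9, 22.4, 22.4 and 20.9 CPM in WT and 15.9, 18.3, 18.2 and 13.7 CPM in *psap* KO libraries, a log2 fold change of -0.38 (SE 0.104, edgeR adjusted p = 0.0116). *col4a3bpb* was at 41.5, 43.2, 41.3 and 39.7 CPM in WT and 81.6, 70.04, 59.2 and 69.9 CPM in *psap* KO libraries, a change of 0.76 (SE 0.0902, edgeR adjusted p = 3.44e-05). Neither overlapped between genotypes, and the signs were opposite. *itgb1bp1*, whose product binds the tail of beta1 integrin, had a change of 0.33 (95% interval 0.04 to 0.61, edgeR adjusted p = 0.0629).

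Among 16 pairs of tested paralogs, the difference between the a and the b gene was compared between genotypes with an exact two-sided permutation test, whose smallest possible p is 0.0286. The pairs of *col5a3*, *col4a3bp*, *fn1* and *itgb1* reached that p, which is 0.114 after adjustment over the 16 pairs, so no pair passed. With this smallest p, a pair could pass only if many of the 16 reached it together. The test therefore cannot decide whether the paralogs of a pair differed in their response. The a gene minus the b gene moved in *psap* KO brains by 1.23 for *col5a3*, -1.13 for *col4a3bp*, 0.64 for *fn1* and -0.59 for *itgb1* on the log2 scale. The difference moved least for *lamb1*, by 0.01 (exact permutation p = 0.971).

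The other genes of the pathway were taken from lists written from general knowledge, with earlier results of these data known. Their shares of calls are set against those of all tested genes, 22.3% higher and 18.5% lower. Of 51 integrin adaptors and downstream effectors, 16 were higher (31.4%) and 7 lower (13.7%), with a median log2 fold change of 0.10. Those with the smallest p were a *lyn* gene, for a kinase of the Src family, at 1.92 (SE 0.128, edgeR adjusted p = 3.44e-07), *ptk2ba*, for a focal adhesion kinase relative, at 2.73 (SE 0.201, edgeR adjusted p = 7.16e-07), and *apbb1ip*, for an adaptor between Rap1 and talin, at 2.34 (SE 0.195, edgeR adjusted p = 2.01e-06). All of these are also known from leukocytes. Talin and tensin genes, all chosen after their values were seen, went both ways. *tln1* was at 0.84 (SE 0.0821, edgeR adjusted p = 7.38e-06), and *tln2a* and *tns1a* were at -0.46 (SE 0.0638, edgeR adjusted p = 1.08e-04) and -0.86 (SE 0.08898, edgeR adjusted p = 1.13e-05).

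Of 41 genes for collagen synthesis and processing, 9 were higher (22%, near the 22.3% of all genes) and 4 lower (9.76%, against 18.5%), with a median of -0.01. The higher genes with the smallest p were *p4hb*, the beta subunit of prolyl 4-hydroxylase, at 0.51 (SE 0.0722, edgeR adjusted p = 1.41e-04), *adamts3*, a procollagen N-proteinase, at 0.95 (SE 0.137, edgeR adjusted p = 1.52e-04), and *bmp1b*, a procollagen C-proteinase, at 0.67 (SE 0.106, edgeR adjusted p = 3.00e-04). The 4 lower genes, named after their values were seen, were *adamts14* (-1.09), *creb3l1* (-0.94), *adamts2* (-0.33) and *pcolce2b* (-0.54). *creb3l1* encodes a transcription factor for collagen and its secretion, and *adamts2* and *adamts14* encode procollagen N-proteinases like *adamts3*.

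Of 36 partners of basement membranes and laminin receptors, 4 were higher (11.1%, against 22.3% of all genes) and 13 lower (36.1%, against 18.5%), with a median of -0.12. The 4 higher genes were *hspg2*, for the basement membrane proteoglycan perlecan, at 0.92 (SE 0.0604, edgeR adjusted p = 3.09e-07), *sdc4*, for a syndecan, at 1.61 (SE 0.117, edgeR adjusted p = 6.63e-07), *frem1b* at 1.18 (SE 0.0886, edgeR adjusted p = 8.49e-07), and *nid1b*, for a nidogen that ties laminin to type IV collagen, at 0.802 (SE 0.126, edgeR adjusted p = 2.99e-04). Among the 13 lower genes were *dag1* (dystroglycan) at -0.22, *dmd* (dystrophin) at -0.28, *dtna* at -0.33, and *sgcb*, *sgcd* and *sgce* (sarcoglycans) at -0.26, -0.36 and -0.25. The choice of these lower genes followed their values.

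Of 18 lecticans, hyaluronan link proteins and relatives, 4 were higher (22.2%, near the 22.3% of all genes) and 5 lower (27.8%, against 18.5%), with a median of 0.15. *cspg5b*, for a neuronal proteoglycan, was at -0.49 (SE 0.0626, edgeR adjusted p = 5.75e-05), *hapln4*, for a link protein of perineuronal nets, at -1.29 (SE 0.168, edgeR adjusted p = 1.12e-04), and *vcanb*, for a versican, at 1.06 (SE 0.144, edgeR adjusted p = 1.51e-04). Of 34 other integrin ligands, 7 were higher and 7 lower, with a median of -0.14. Each of these counts is 20.6%, near the shares of all genes, 22.3% and 18.5%. *mfge8b*, for a ligand of alphaV integrins on dying cells, was at -0.89 (SE 0.104, edgeR adjusted p = 3.06e-05), *npnt*, for the alpha8 ligand nephronectin, at -0.56 (SE 0.0738, edgeR adjusted p = 7.53e-05), and *thbs4b*, for a thrombospondin, at -0.701 (SE 0.0954, edgeR adjusted p = 9.91e-05).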

How the data were processed

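Total RNA of whole brains was depleted of ribosomal RNA and sequenced as stranded libraries. Per the labels and methods, the authors took out optical duplicates, cut adapters (cutadapt 1.16), aligned with STAR 2.6.1b, obtained counts per gene from featureCounts 1.6.3 and ran DESeq2 1.22.2 on the genotypes. FastQC, Picard and MultiQC are also named. The methods name the Zv10 genome with Ensembl release 94. The strand setting of the counting is not given in the sources used here, so reads of overlapping genes may be shared. The values used here are the deposited raw counts per gene, with the deposited gene names and positions. Columns of the authors' own comparison (fold changes, p-values) and their scaled or log-transformed counts were left out.

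Depth was 15332163 to 25127578 counts per library, which limits the precision for genes with few counts. In R 4.3.3, edgeR 4.0.16 was run on all libraries with TMM scaling, filterByExpr by genotype (1731 genes left out, 21140 tested) and a robust quasi-likelihood fit, with genotype as the only term and Benjamini-Hochberg adjustment over all genes at 0.05. The standard error (SE) is the log2 fold change divided by the square root of F, and 95% intervals use the same degrees of freedom. No 2 libraries of a genotype agreed within counting noise, so each stands for 1 replicate. Paralogs were compared on log2 CPM with a prior count of 2. The script was tested on simulated data.

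Members, roles and lists were chosen with earlier results of these data known. In each role the text names the 3 called members with the smallest p and the member with the highest CPM, and in each pathway list the 3 called genes with the smallest p. All other members that are named were chosen after their values were seen, and some tested members that were not called are not named. Each result was recomputed with RLE and upper-quartile scaling, no filter, a mean count of at least 50, DESeq2 1.42.0, limma-voom (limma 3.58.1), the replicate number as a term, and leaving out each library in turn. Paralog pairs were also compared with a prior count of 0.5, with RLE scaling, within replicate numbers and without each library. RNA sequences were not analysed here. The result for 1 matched gene is not reported here and is left out of the counts of members.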

Additional observations from a re-analysis of the deposited data

Results flagged for a closer look

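In groups of 4 libraries, a member was picked out where its highest or lowest library lay so far from the nearest other library, relative to the range of the group, that it passed Dixon's 95% limit. Of 190 groups, 10 met this, and chance alone gives about 1 in 20.

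Collagens gave 5 of them. *col12a1b* was picked out in both genotypes, with 13.8 CPM in WT replicate 2 against 4.46 to 5.19 CPM in WT replicates 1, 3 and 4, and 21.8 CPM in *psap* KO replicate 1 against 1.26 to 4.62 CPM in the other *psap* KO libraries. *col21a1* was at 2.00 CPM in WT replicate 4 (0.270 to 0.486 CPM in the others), *col9a3* at 6.28 CPM in the same library (4.79 to 4.97 CPM) and *col6a3* at 17.7 CPM in WT replicate 2 (24.2 to 25.2 CPM).

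Laminins gave 3. *lama2* was at 4.76 CPM in *psap* KO replicate 3 (6.20 to 6.47 CPM in the others), *lamb1a* at 17.9 CPM in WT replicate 1 (20.2 to 20.4 CPM) and *lamc3* at 55.3 CPM in *psap* KO replicate 1 (75.5 to 76.7 CPM).

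Integrins gave 2. *itgb1b* was at 28.4 CPM in *psap* KO replicate 2 (32.5 to 32.8 CPM in the others), and *itgb2* was at 106 CPM in *psap* KO replicate 4 (82.3 to 83.5 CPM). The cause of these values was not tested.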

How the results depend on the processing

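The counts of called matrix and integrin genes stayed within 1.5 times of the values given under every alternative except for lower integrin genes, which went from 2 to 1 with limma-voom and ranged from 1 to 2 without each library. Of the pathway lists, lower integrin adaptors went from 7 to 11 with a term for the replicate number (replicate block). All other comparison counts, 245 in all over the alternatives, stayed within that range. Counts by role were less stable, as 48 of 360 moved by more than 1.5 times. Lower basement membrane and network collagens went from 3 to 1 with a mean count of at least 50, lower fibril-associated collagens from 5 to 3 without 1 library, and lower laminins from 0 to 1 with RLE scaling, DESeq2, limma-voom and the replicate block. Of the 47 member calls, 46 held with RLE scaling, 45 with upper-quartile scaling, 45 with no filter, 46 with DESeq2, 44 with limma-voom, 45 with the replicate block and 38 to 43 without 1 library. With a mean count of at least 50, 39 held and the other 8 were not evaluated. No called member changed sign in any of these. Scaling moved the median of all genes from 0.02 to 0.05 at most, with upper-quartile scaling. Libraries with the same number in both genotypes correlated at 0.06, 0.07, 0.13 and 0.17 in their deviations from the genotype means. Libraries with different numbers correlated at -0.12 to 0.07. Not every library correlated best with its own number, so the numbers were not taken as pairs. The second principal component (8.48% of the variance) was negative for replicates 1 and 2 and positive for replicates 3 and 4 in both genotypes. Whether the order of processing has a part in this was not tested. The replicate block called 6 further members. No paralog pair passed under any alternative, where the smallest p is 0.125 within replicate numbers and 0.0286 without 1 library, so this says nothing about stability. Depth limits the precision for members with fewer than about 100 counts per genotype, whose intervals span more than 1 on the log2 scale.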

Other observations

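Several members lie next to each other in the deposited annotation, and neighbours did not always share a call. *lamb1a* and *lamb4*, 4.23 kb apart on the same strand of chromosome 25, were both higher, as were *itga1* and *itga2.2*, 44.7 kb apart on chromosome 10. *lamb2* was higher and *lamb2l*, 3.08 kb away, did not pass. *col6a1* was lower and *col6a2*, 36.2 kb away, did not pass. *col4a5* and *col4a6*, 0.752 kb apart on opposite strands of chromosome 7, and *col4a1* and *col4a2* did not pass. These are values of single genes, with no test of neighbours as a group.

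Matrix genes together took 0.128% to 0.134% of the counts in WT libraries and 0.123% to 0.138% in *psap* KO libraries, which overlap. Integrin subunit genes took 0.0459% to 0.0504% in WT and 0.0725% to 0.0919% in *psap* KO libraries, which do not overlap, and *psap* KO replicate 4 had the highest share. This share weighs genes by their counts. Mean levels in WT and *psap* KO brains were 132 and 259 CPM for *itgav* and 15.9 and 88.6 CPM for *itgb2*, whereas 13 of the 28 tested integrin genes were not called.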
